A study of Mus musculus with 6 samples.

Results

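The genes described here sense DNA in the cytosol of a cell or belong to the PYHIN family, and they were measured in dendritic cells taken from mouse tumours. The 10 symbols chosen were Cgas, Tmem173 (also named Sting1), Aim2, Ifi203, Ifi204, Ifi205, Ifi209, Mndal, Zbp1 and Trex1. They were found by mapping the Ensembl identifier of each row of the count table to its symbol. This gave 9 genes of the 26519 in the table, and all 9 passed the filter on low counts that left 12580 genes for testing. Trex1, the exonuclease that degrades DNA in the cytosol, was not analysed here.

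The samples were 6 RNA sequencing libraries of dendritic cells that had entered tumours of MC38, a mouse colon carcinoma line, isolated on day 10 after inoculation. In 3 libraries the host mice were wild-type (WT) and in 3 they were MAVS knockout (MAVS KO). All hosts carried the same tumour line, and no other treatment is named. The comparison asks what loss of host MAVS does to the dendritic cells of the tumour. The strain, age and sex of the mice, the deleted part of Mavs and the gate used to isolate the cells were not given in the sources used here. Nor do the labels say whether libraries came from separate or pooled animals, so the p-values below measure only the spread between these samples.

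Cells detect DNA that is out of place with several receptors. cGAS makes the second messenger cGAMP from DNA, and cGAMP activates STING on the endoplasmic reticulum, which recruits the kinase TBK1 and leads to type I interferon. AIM2 instead builds an inflammasome with ASC and caspase-1, and ZBP1 binds left-handed nucleic acid and can start necroptosis through RIPK3. MAVS, absent by label in the knockout hosts, serves the separate receptors for cytosolic RNA. In dendritic cells, STING signalling is known for its part in the priming of T cells against tumours. AIM2 belongs to the PYHIN family, whose other mouse members lie side by side on chromosome 1 and are classical interferon-inducible genes. Because they are copies of one another, the sequence before their start sites was examined first.

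Promoter windows (RefSeq, GRCm38.p6, from 250 bases before to 50 bases after each start site) were found for 6 of the 9 members. They are Cgas, Aim2, Ifi203, Ifi205, Ifi209 and Mndal, while Ifi204, Tmem173 and Zbp1 had no entry. The letters GAAANNGAAA, the core of the interferon-stimulated response element, were searched on both strands, and 3.44% of all 32851 windows held a match. Among PYHIN genes 9 of 11 with a window held one, including the members Ifi203, Ifi205 and Mndal. Aim2, Ifi209 and Cgas did not hold these letters in their windows. Stretches of 55 bases around a match, or around a near copy in Ifi209, are printed so that the copies can be compared. Capitals mark the match, and each stretch is written 5′ to 3′ on the gene's own strand. They lie at chr1:173942498-173942552 (minus strand, Ifi203), chr1:173880194-173880248 (minus, Mndal), chr1:174031860-174031914 (minus, Ifi205), chr1:173913054-173913108 (minus, Ifi211, a family gene outside the 10), chr1:173491329-173491383 (minus, Ifi206, likewise outside) and chr1:173630755-173630809 (plus, Ifi209).
Ifi203: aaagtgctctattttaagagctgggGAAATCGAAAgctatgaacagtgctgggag
Mndal: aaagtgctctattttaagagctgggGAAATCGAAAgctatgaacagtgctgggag
Ifi205: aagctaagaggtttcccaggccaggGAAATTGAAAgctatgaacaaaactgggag
Ifi211: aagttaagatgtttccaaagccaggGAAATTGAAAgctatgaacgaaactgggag
Ifi206: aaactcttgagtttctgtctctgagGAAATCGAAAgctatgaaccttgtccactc
Ifi209: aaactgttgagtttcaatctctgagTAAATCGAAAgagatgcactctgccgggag

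The stretches of Ifi203 and Mndal were the same in all 55 bases, with the match starting 35 and 36 bases before the respective start sites. Ifi205 carried its match 134 bases before the start, in the form GAAATTGAAA that Ifi211 also carried. The form GAAATCGAAA of Ifi203 and Mndal occurred in 16 of all windows, or 0.0487%, and 7 family genes held it. Mndal also held a match on the other strand, TTTCTCTTTC, 54 bases before another of its start sites. Ifi209 held a copy that differed by the substitution G1T, counted from 1 at the 5′ end of the motif, 79 bases before its start. Another copy in Ifi209, GAAAAGCAAA at 177 bases before the start, was also 1 base off (G7C) and is not printed. Matches at most 1 base off are common, being present in 35.4% of all windows. A match is a description of letters and was not tested for binding. None of the 3 members that held the core passed the test of the groups, with log2 fold changes (knockout minus wild-type) of 0.38 for Ifi203, 0.18 for Mndal and -0.48 for Ifi205.

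The libraries held 14466640 to 20851733 counts. Mavs was lower in all 3 knockout libraries, with a mean of 10.4 ± 2.09 against 37.7 ± 3.32 CPM (SD, n = 3 per group), and its log2 fold change was -1.86 (Benjamini-Hochberg adjusted p = 0.0017 in edgeR's quasi-likelihood test). CPM are counts scaled to a common library size, here by the TMM method, which sets most genes near no change. Over all tested genes the median log2 fold change moved from -0.00216 to -0.172 with library size alone, so directions are relative to the TMM scale. Of the markers of the labelled cell type, H2-Ab1 and Cd74, which serve antigen presentation, averaged 15673 and 18165 CPM in wild-type libraries, and Flt3 and Zbtb46, more specific to dendritic cells, 49.9 and 20.1 CPM. Of 9 dendritic cell markers edgeR called 4 lower in knockout hosts, Flt3 (-2.01), Zbtb46 (-1.20), Xcr1 (-2.18) and Cd209a (-1.86). It called 1 higher, Ccr7 (1.12). Over all 12580 tested genes 132 were called lower and 222 higher. The other 4 markers were not called, Clec9a (-0.07), H2-Ab1 (0.03), Cd74 (0.24) and Itgax (0.25), and Itgax was higher in every knockout library. Sums over all 9 were nearly all H2-Ab1 and Cd74 and do not reflect the 4 lower markers. They ran from 29999 to 36747 CPM in wild-type libraries, against 33306 to 43193 CPM in knockout libraries. The 8 macrophage and monocyte markers, led by Lyz2, were abundant as well, with sums from 24656 to 29333 CPM against 25349 to 33315 CPM. In wild-type libraries C1qb, Csf1r and Ccr2 averaged 2151, 1354 and 1250 CPM, and Ly6c2, the lowest of this list, 11.4 CPM. None of the 8 passed edgeR's test, and 3 had an unadjusted p below 0.05, against 16.0% of all tested genes. DESeq2 called 1 of them, C1qa, against 6.14% of all tested genes. Neutrophil markers summed to at most 56.3 CPM against 95.9 CPM with Ly6g and S100a9 near 0 (Mmp8 was the 1 of 3 tested that rose), and T and NK cell markers to at most 10.5 against 11.1 CPM. Sums of the epithelial list, nearly all Cdh1, reached 541 against 676 CPM with 3 keratins near 0, and those of fibroblasts and endothelium 57.9 against 81.6 CPM. In bulk samples a change in the share of a cell type and a change in RNA per cell cannot be told apart, and the part of these markers in the results below was not tested.

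Of the 9 members only Ifi204 passed edgeR's test, and it rose in knockout hosts. DESeq2 and limma-voom each called the same 1 gene, against 6.14% and 2.54% of all tested genes. The other 8 did not pass at an adjusted p of 0.05. For comparison, 2.81% of all tested genes passed in either direction and 1.76% passed as higher. The libraries of the groups did not overlap for 6 of the 9 members, against 21.8% of all tested genes. Those higher in every knockout library were Tmem173, Zbp1, Ifi203, Ifi204 and Ifi209, or 5 of 9 against 11.2% of tested genes. Cgas was lower in every knockout library, 1 of 9 against 10.6% of tested genes. The separation depended on scaling: with library size alone only Ifi204 was higher in every knockout library, and Cgas and Aim2 were lower, where 5.19% and 22.7% of tested genes behaved so. At an unadjusted p under 0.05 stood 5 of 9 members, against 16.0% of tested genes.

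**Figure D1:**
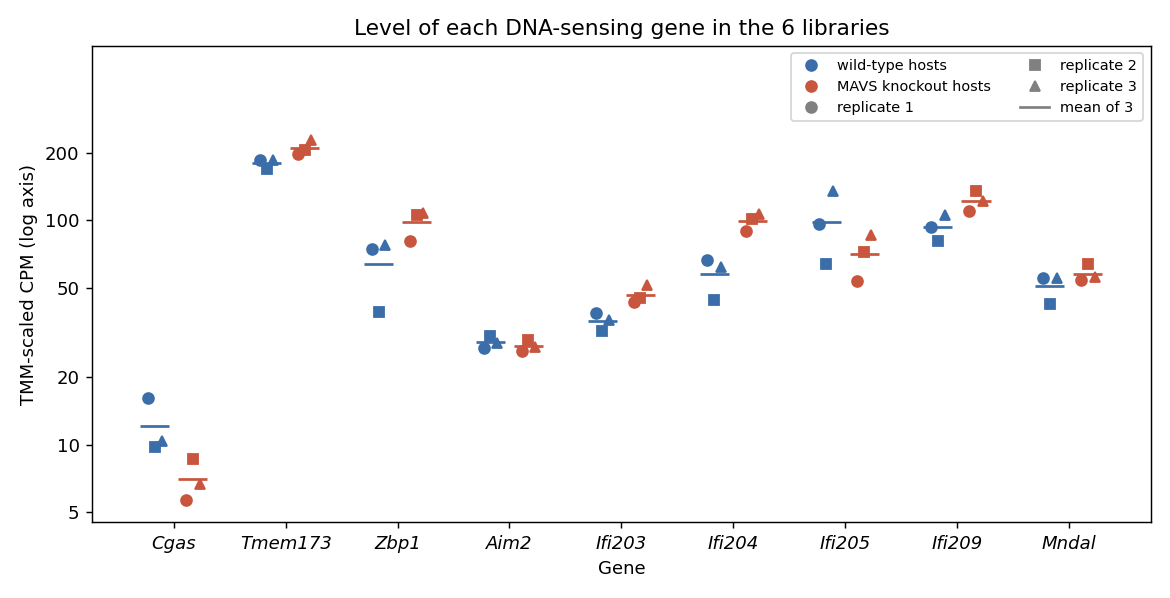
TMM-scaled CPM (log axis) of the 9 members in each library, wild-type hosts in blue and MAVS knockout hosts in red, with the mean of 3 as a line. Ifi204 ran from 44.1 to 66.8 CPM in wild-type and from 90.0 to 107 CPM in knockout libraries, while Aim2 stayed between 26.1 and 30.4 CPM in all 6.

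The plot of levels by library shows a pattern within each group that most members share. Wild-type replicate 2 was the lowest wild-type library for 8 of 9 members, all except Aim2, for which it was the highest. Over all tested genes that library was the lowest wild-type library for 33.1%. Knockout replicate 1 was the lowest knockout library for 9 of 9 members, against 33.3% of tested genes. The members are measured in the same libraries and are not independent of each other.

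cGAS, the enzyme that starts the pathway, was the least expressed member per length. Cgas (ENSMUSG00000032344, chromosome 9, 78430526 to 78443237, minus strand) measured 16.2, 9.77 and 10.4 CPM in the wild-type libraries and 5.67, 8.65 and 6.67 CPM in the knockout libraries, in replicate order. All 3 knockout libraries lay below all wild-type libraries, from 91 to 129 counts against 183 to 329. The log2 fold change was -0.80 (SE 0.27, 95% interval -1.39 to -0.20), a fold of 0.576, and it did not pass after adjustment (adjusted p = 0.173 in edgeR). Wild-type replicate 1 stood apart above the other 5 libraries, and without it the log2 fold change was -0.54.

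STING, the adaptor that receives the signal of cGAS, was the most expressed member per length and differed little between the groups. Tmem173 (ENSMUSG00000024349, chromosome 18, 35733679 to 35740554, minus strand) measured 186, 170 and 186 CPM in wild-type and 197, 205 and 229 CPM in knockout libraries. The knockout libraries were all higher, by a narrow margin, and the log2 fold change was 0.22 (SE 0.10, 95% interval -0.02 to 0.45, edgeR adjusted p = 0.353). With library size alone it was 0.05. Within each library the count of Tmem173 over that of Cgas, which no scaling affects, was 11.4, 17.4 and 17.9 in wild-type and 34.7, 23.7 and 34.3 in knockout libraries. The ratios of the groups did not overlap, with a difference of 0.99 on the log2 scale. An exact two-sided permutation test gave p = 0.1, the smallest that 3 against 3 allows, and this pair was chosen after its values were seen. As Tmem173 was higher and Cgas lower in every knockout library, their ratios had to separate, so this p adds nothing to the separate values.

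ZBP1, the sensor of left-handed nucleic acid, had a higher mean in knockout hosts and a wide spread. Zbp1 (ENSMUSG00000027514, chromosome 2, 173206612 to 173218923, minus strand) measured 74.5, 38.9 and 77.9 CPM in wild-type and 80.8, 106 and 108 CPM in knockout libraries. The groups did not overlap, but knockout replicate 1 lay close to wild-type replicate 3, and wild-type replicate 2 was far below the rest. The log2 fold change was 0.62 (SE 0.23, 95% interval 0.11 to 1.14) and did not pass (edgeR adjusted p = 0.215). Without wild-type replicate 2 it was 0.36, and without wild-type replicate 3 it was 0.80.

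AIM2, the PYHIN protein that nucleates an inflammasome on DNA, showed no detectable difference. Aim2 (ENSMUSG00000037860, chromosome 1, 173350879 to 173466040, plus strand) measured 27.0, 30.4 and 28.4 CPM in wild-type and 26.1, 29.4 and 27.2 CPM in knockout libraries. The groups overlapped, and the log2 fold change was -0.05 (SE 0.14, edgeR adjusted p = 0.90). The 95% interval, from -0.36 to 0.25, leaves room for a fold between 0.779 and 1.19. Its annotated span overlaps Cadm3 on the opposite strand, and the strand setting of the counting was not given in the sources used here.

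Ifi204, the mouse relative of human IFI16 and a candidate DNA sensor upstream of STING, was the member that rose. Ifi204 (ENSMUSG00000073489, chromosome 1, 173747293 to 173766943, minus strand) measured 66.8, 44.1 and 61.8 CPM in wild-type and 90.0, 101 and 107 CPM in knockout libraries. Every knockout library was above every wild-type library, from 1460 to 1602 counts against 826 to 1356. The log2 fold change was 0.79 (SE 0.16, 95% interval 0.44 to 1.14), a fold of 1.73, with a Benjamini-Hochberg adjusted p of 0.0327 in edgeR's quasi-likelihood test. When each library was left out in turn, the log2 fold change lay between 0.62 and 0.90, and the call was kept only without wild-type replicate 1 (edgeR adjusted p from 0.044 to 0.143). With library size alone it was 0.62 (edgeR adjusted p = 0.0556).

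Ifi205, another gene of the cluster, had the opposite sign. Ifi205 (ENSMUSG00000054203, chromosome 1, 174011998 to 174031810, minus strand) measured 96.1, 64.1 and 135 CPM in wild-type and 53.7, 72.6 and 85.7 CPM in knockout libraries. The groups overlapped, and the wild-type libraries spread more widely than the knockout libraries. Its log2 fold change was -0.48 (SE 0.25, 95% interval -1.03 to 0.07, edgeR adjusted p = 0.393). It was -0.18 without wild-type replicate 3, which held the highest value, and -0.72 without wild-type replicate 2.

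Ifi204 and Ifi205 were also set against each other within each library, where no scaling enters. The ratio of Ifi204 to Ifi205 counts was 0.695, 0.688 and 0.458 in wild-type and 1.68, 1.40 and 1.25 in knockout libraries. Ifi205 thus had more counts than Ifi204 in all 3 wild-type libraries and fewer in all 3 knockout libraries, a difference of 1.25 on the log2 scale. The exact two-sided permutation p was 0.1, again the smallest possible, and this pair too was chosen after its values were seen. The share of the 13 PYHIN genes' summed counts that fell to Ifi204 averaged 11.8% in wild-type and 17.8% in knockout libraries, and that of Ifi205 averaged 19.8% and 12.6%. Summed over the 13 genes the groups overlapped, from 385 to 563 CPM in wild-type libraries against 504 to 598 CPM in knockout libraries.

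**Figure D2:**
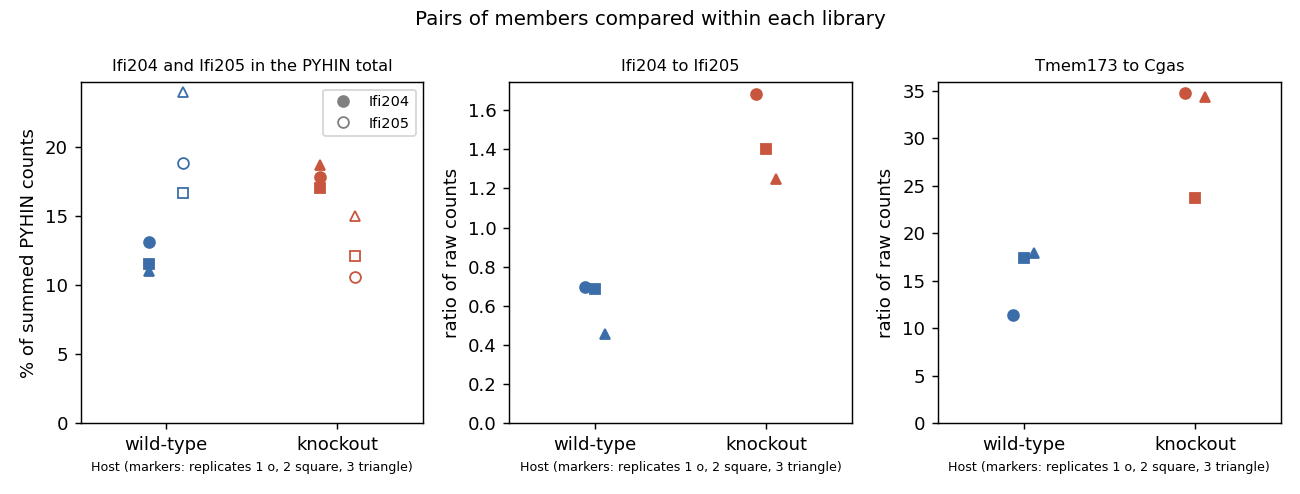
Left, the percentage of all PYHIN counts held by Ifi204 (filled) and Ifi205 (open) in each library; middle and right, the ratios of raw counts of Ifi204 to Ifi205 and of Tmem173 to Cgas, by host, with replicates 1, 2 and 3 as circle, square and triangle. The Ifi204 to Ifi205 ratio was 0.458 to 0.695 in wild-type libraries against 1.25 to 1.68 in knockout libraries, and the Tmem173 to Cgas ratio was 11.4 to 17.9 against 23.7 to 34.7.

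The plot of pairs shows ratios without overlap between the groups, for pairs that were chosen with their values known. Of these 4 genes Ifi204 alone passed the test, and the ratios are a description only. Reads from copies can be assigned to the wrong gene, so the shared sequence of the transcripts was measured. Of the 50-base stretches of Ifi204 transcripts (GENCODE M21), 19.2% also occurred in another family gene, mainly Ifi211 (14.8%). For Ifi205 the share was 18.6%, again mainly with Ifi211 (18.5%), and only 1.44% of its stretches occurred in Ifi204. For Ifi209 it was 33.4%, all with Ifi214, for Mndal 17.7% and for Ifi203 12.2%. Ifi211 itself shared 72.8% with the family, including 44.7% with Ifi205 and 30.1% with Ifi204, so its value is the least certain. Cgas, Tmem173, Aim2 and Zbp1 shared 0% with the family. With any other gene Cgas shared 4.68%, Aim2 0.742%, and Tmem173 and Zbp1 0%. How long the reads were and how those with several matches were treated was not given in the sources used here. PYHIN values other than that of Aim2 therefore carry this uncertainty, and the values of Cgas and Aim2 carry less of it.

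The remaining PYHIN members had higher means in knockout hosts without passing. Ifi203 (ENSMUSG00000039997, chromosome 1, 173920407 to 173942672, minus strand) measured 38.8, 32.2 and 36.0 CPM in wild-type and 43.2, 45.1 and 51.4 CPM in knockout libraries. The groups did not overlap, and the log2 fold change was 0.38 (SE 0.14, edgeR adjusted p = 0.191). Ifi209 (ENSMUSG00000043263, chromosome 1, 173630917 to 173647928, plus strand) measured 93.2, 80.7 and 106 CPM in wild-type and 110, 135 and 122 CPM in knockout libraries. The groups did not overlap here either, with 106 CPM just below 110 CPM, and the log2 fold change was 0.40 (SE 0.13, edgeR adjusted p = 0.164). Mndal, which is named for its likeness to the myeloid nuclear differentiation antigen (ENSMUSG00000090272, chromosome 1, 173849126 to 173942491, minus strand), measured 55.5, 42.4 and 55.1 CPM in wild-type and 54.2, 63.9 and 55.6 CPM in knockout libraries. Its groups overlapped, and 4 of its 6 libraries lay within 54.2 to 55.6 CPM. The log2 fold change was 0.18 (SE 0.14, edgeR adjusted p = 0.612) and 0.06 without wild-type replicate 2. The annotated span of Mndal contains Ifi211 and overlaps Ifi203 on the same strand, so reads in the overlap cannot be told apart by strand.

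The other genes of the PYHIN cluster gave no call in edgeR, DESeq2 or limma-voom, 0 of 7 higher and 0 of 7 lower. Only 1 was at an unadjusted p below 0.05, against 16.0% of all tested genes. Their median log2 fold change was -0.05, against 0.22 for the members and -0.00216 for all tested genes, and with library size alone it was -0.21, again with no call. That 1 was Ifi206, at 19.8, 11.4 and 18.2 CPM in wild-type and 24.9, 28.1 and 23.8 CPM in knockout libraries, without overlap (log2 fold change 0.63, SE 0.21, edgeR adjusted p = 0.168). Ifi214 had the largest value, 1.48 (SE 0.77, edgeR adjusted p = 0.393), from 18, 1 and 13 counts against 33, 21 and 15. Ifi211, with most of its sequence shared, stood at 0.32, Ifi207 at -0.05, Ifi203-ps at -0.06, Ifi213 at -0.34 and Ifi208 at -0.49 on the log2 scale, all with overlapping groups. Genes next to each other along the chromosome had values of both signs.

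**Figure D3:**
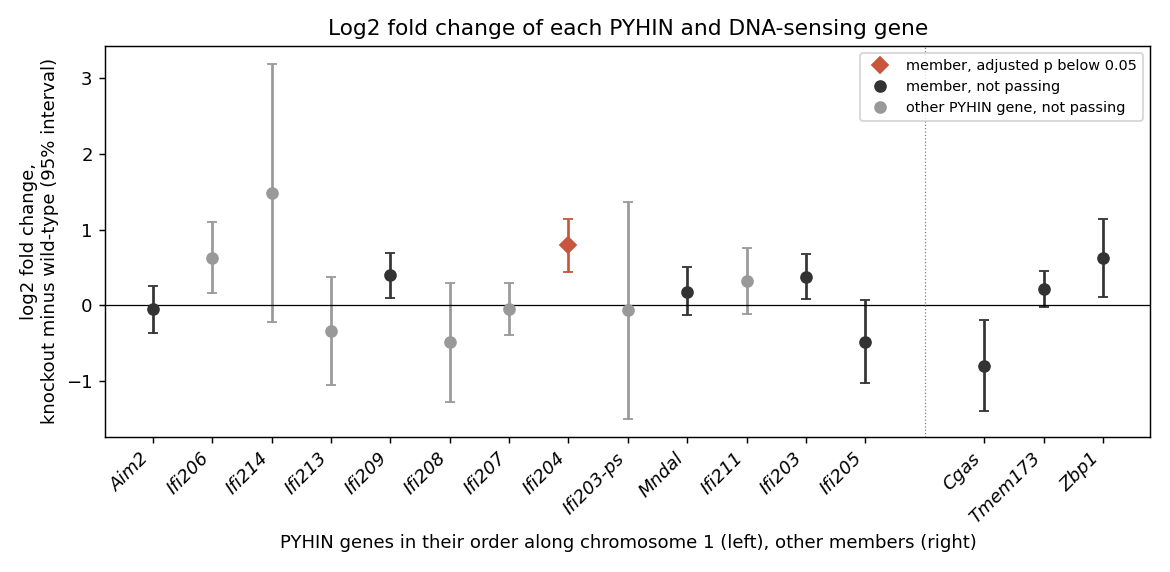
Log2 fold change (knockout minus wild-type) with its 95% interval for the 13 PYHIN genes in their order along chromosome 1 and, right of the dotted line, for Cgas, Tmem173 and Zbp1. Ifi204 (0.79, red diamond) is the 1 gene past the threshold, and the interval of Ifi203-ps beside it runs from -1.50 to 1.37.

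The plot along the cluster places Ifi204 between Ifi207, whose 95% interval ran from -0.39 to 0.30, and Ifi203-ps, whose 6 to 25 counts per library left a wide interval from -1.50 to 1.37. Its interval, from 0.44 to 1.14, and those of Ifi206, Ifi209 and Ifi203 lay above 0, while the other 9 PYHIN genes had intervals that included 0. Cgas had an interval wholly below 0 and Zbp1 one wholly above it. These intervals are not adjusted for the number of genes tested.

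Levels can be compared between members only per length, here as CPM per kilobase of exon. In wild-type hosts the order was Tmem173 at 65.9, Ifi209 at 26.3, Ifi205 at 23.6, Zbp1 at 18.1, Ifi204 at 16.2, Mndal at 14.1, Aim2 at 8.18, Ifi203 at 5.32 and Cgas at 2.94 CPM per kilobase. Neighbours from Ifi209 down to Mndal overlapped in their libraries, whereas Tmem173, Aim2, Ifi203 and Cgas were each separate from the neighbours in the order. In knockout hosts Tmem173 stood at 76.6 and Ifi209 at 34.6, followed by Ifi204 and Zbp1, both at 27.9. Ifi205 at 16.9 and Mndal at 16.0 overlapped, as did Aim2 at 7.88 and Ifi203 at 6.95, and Cgas was last at 1.70 CPM per kilobase. By mean alone, Ifi204 held place 5 in wild-type and place 3 in knockout hosts, and Ifi205 went from place 3 to place 5. These places are not resolved, since Ifi204 and Zbp1 overlapped in both hosts and Ifi205 overlapped its neighbours in the wild-type order.

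The genes listed for cGAS-STING signalling, which include regulators as well as downstream genes, gave no call in edgeR, DESeq2 or limma-voom. Of these 17, 0 were higher and 0 lower, and 0 had an unadjusted p below 0.05, against 16.0% of all tested genes. Their median log2 fold change was 0.03, or -0.15 with library size alone, about the shift of all genes. The smallest p-values belonged to Rela, a subunit of NF-kappa-B (0.26, SE 0.12, edgeR adjusted p = 0.321), Nlrx1, a mitochondrial regulator (-0.26, edgeR adjusted p = 0.447), and Tbk1, the kinase bound by STING (0.20, edgeR adjusted p = 0.504). The libraries of Tbk1 overlapped, from 60.5 to 71.9 CPM in wild-type hosts against 67.7 to 85.2 CPM in knockout hosts. Among genes listed as handling cytosolic or lysosomal nucleic acid, most of them nucleases, 0 of 10 passed edgeR's test in either direction. Their median was -0.15, and 3 had an unadjusted p below 0.05, against 16.0% of all tested genes. DESeq2 called 1, Samhd1, against 6.14% of all tested genes, and limma-voom called 0. With library size alone edgeR called 1 lower, Pld4, against 341 of all 12580 tested genes, and the median was -0.32. Samhd1, which degrades deoxynucleotides, came nearest, at 658, 460 and 644 CPM in wild-type and 800, 875 and 892 CPM in knockout libraries (log2 fold change 0.54, SE 0.14, edgeR adjusted p = 0.0673). Its wild-type replicate 2 was the lowest library, as for most members. The exonucleases Pld3 (0.38, edgeR adjusted p = 0.162) and Pld4 (-0.23, edgeR adjusted p = 0.263) had opposite signs, each without overlap between the groups.

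Of 12 genes listed as partners of AIM2 and ZBP1 or with inflammasomes, 0 passed edgeR's test in either direction, with a median of 0.10. An unadjusted p below 0.05 was found for 3, against 16.0% of all tested genes. DESeq2 called those 3, Mlkl, Il18 and Il1b, against 6.14% of all tested genes, and limma-voom called 0. With library size alone edgeR called 1 lower, Il18, against 341 of all 12580 tested genes, and the median was -0.07. Mlkl, the pore-forming effector of necroptosis downstream of ZBP1 and RIPK3, measured 31.1, 23.1 and 29.1 CPM in wild-type and 45.2, 48.2 and 38.8 CPM in knockout libraries. Its groups did not overlap, and it lay just outside the threshold (log2 fold change 0.67, SE 0.16, edgeR adjusted p = 0.0518). The 2 cytokines that caspase-1 matures had opposite signs. Il18 measured 14.0, 8.17 and 8.29 CPM against 5.28, 5.50 and 3.81 CPM (-1.06, edgeR adjusted p = 0.0933), and Il1b 1587, 1676 and 1576 CPM against 1767, 2962 and 2363 CPM (0.55, edgeR adjusted p = 0.102). Neither passed in edgeR with TMM scaling, and both were without overlap between the groups. Il1b (chromosome 2, 129364570 to 129371139) lies near Mavs on the same chromosome (131234063 to 131248025). Linkage of Il1b to the knockout allele was not tested.

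Of 14 other genes listed with DNA sensing, 0 passed in edgeR with TMM scaling, DESeq2 or limma-voom. An unadjusted p below 0.05 was found for 3, against 16.0% of all tested genes. Their median was -0.15, with 13 of 14 values below 0, against 6337 of all 12580 tested genes. With library size alone edgeR called 1 lower, Hmgb2, against 341 of all 12580 tested genes, and the median was -0.32. These 3, with the smallest p-values, were the chromatin proteins Hmgb2 (-0.35, edgeR adjusted p = 0.173) and Hmgb1 (-0.31, edgeR adjusted p = 0.221) and the Ku subunit Xrcc6 (-0.42, edgeR adjusted p = 0.216). Hmgb2 ran from 146 to 164 CPM in wild-type libraries, without overlap with the 109 to 139 CPM of the knockout libraries.

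Genes listed as outputs of the pathway gave the only calls of the 6 related lists in edgeR with TMM scaling, 2 of 9 higher and 0 of 9 lower. Over all tested genes 1.76% passed as higher. The median of these 9 was 0.62, and 1 of them, Usp18, was also counted in the signalling list. Whether their values came from cGAS and STING or from another pathway was not tested. Rsad2, the antiviral enzyme viperin, measured 27.1, 22.1 and 33.2 CPM in wild-type and 69.6, 73.5 and 44.6 CPM in knockout libraries. It rose by 1.19 on the log2 scale (SE 0.21, edgeR adjusted p = 0.0219). Ifit2, an antiviral RNA-binding protein, measured 39.5, 23.7 and 32.6 CPM against 52.4, 70.5 and 52.8 CPM. It rose by 0.87 (SE 0.20, edgeR adjusted p = 0.0443). When each library was left out in turn the call was kept in 2 of 6 fits for Rsad2 and 1 of 6 for Ifit2, with edgeR adjusted p up to 0.0852 and 0.177. The next smallest p belonged to Cxcl10, a chemokine for T cells, at 121, 70.0 and 96.1 CPM against 131, 170 and 157 CPM without overlap (0.67, edgeR adjusted p = 0.0935). Both DESeq2 and limma-voom called Rsad2 and Ifit2 too, and each called 1 more, Cxcl10 in DESeq2 and Ccl5, another chemokine, in limma-voom (1.34, edgeR adjusted p = 0.0962). Over all tested genes DESeq2 called 6.14% and limma-voom 2.54%. All 9 values were above 0, against 6243 of all 12580 tested genes. With library size alone Ifit3 was below 0, the median was 0.45 and Ifit2 was not called (edgeR adjusted p = 0.0699). Ifnb1, which encodes interferon-beta, was near the limit of detection at 0 to 0.393 CPM and was not tested.

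**Figure D4:**
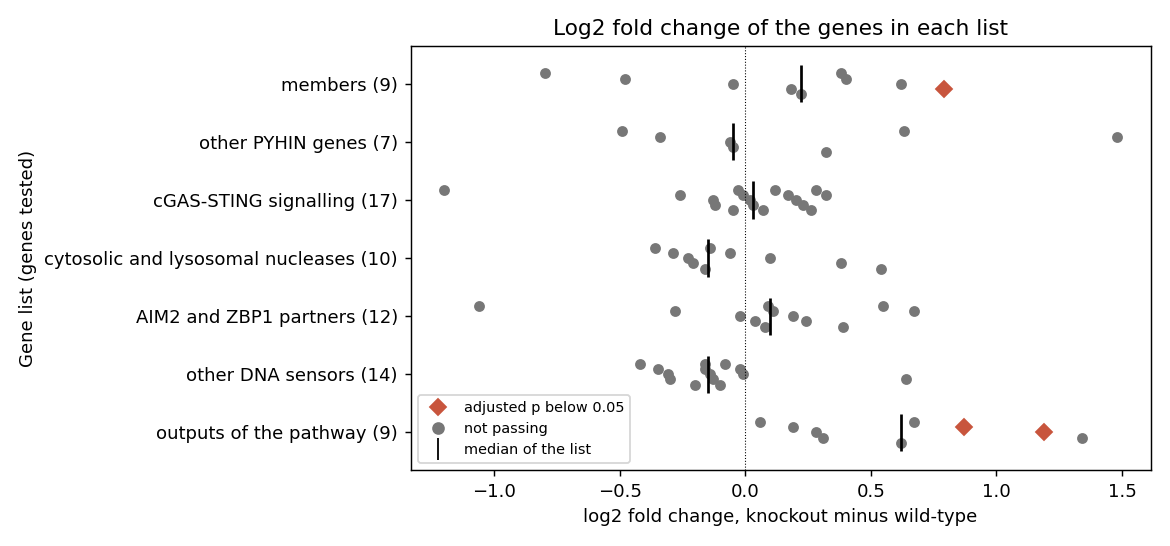
Log2 fold change of each tested gene (points, with red diamonds for adjusted p below 0.05) in the members and the 6 related lists, with the median of each list as a black bar. Called genes appear in the members (Ifi204) and among the outputs (Rsad2 and Ifit2), whose median of 0.62 is the highest. The other DNA sensors have 13 of 14 values below 0, against 6337 of all 12580 tested genes.

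The plot of the lists sets these medians beside each other: 0.22 for the members, -0.05 for the other PYHIN genes, 0.03 for signalling, -0.15 for nucleases, 0.10 for partners, -0.15 for other sensors and 0.62 for outputs. The members spread from -0.80 for Cgas to 0.79 for Ifi204.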

How the data were processed

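For each Ensembl mouse gene the authors deposited a count of reads per library, a whole number without normalization. The submitters' processing notes name mm10, HISAT2 (also HISAT), HTSeq and DESeq2, with no role or version. Trizol was used for RNA extraction, per the labels' protocols. Symbols and positions came from GENCODE M21 on GRCm38, which matched 26383 of 26519 identifiers, and promoters from RefSeq tables of GRCm38.p6.

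Counts were filtered with filterByExpr (minimum count 10, minimum total 15), scaled by TMM and tested with edgeR 4.0.16 in R 4.3.3 by the quasi-likelihood F test, with Benjamini-Hochberg adjustment over all 12580 genes and a threshold of 0.05. Intervals are 95%. Alternative fits used another scaling (DESeq2 size factors or library size alone), another filter (none, or a mean of 5 CPM or more), another test (limma-voom in limma 3.58.1, DESeq2 1.42.0 or robust dispersion), a replicate block, or 5 of the 6 libraries.

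The text names every member and PYHIN gene, Mavs and, of each related list, the called genes and up to 3 with the smallest p. Cell type markers have a list of their own. Ccl5, Ifit3, Ifnb1, Usp18 and the pairs in ratios are outside the rule and were picked with their values known. The result of 1 marker list is not reported here. The members and lists were chosen with earlier results of these data known. No pair of libraries within a group was a duplicate, and pairs across the groups were not checked. In simulations of this comparison, 3 runs with 200 changed genes each, the test recovered 18.6% of 1.5-fold and 54.2% of 2-fold changes.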

Additional observations from a re-analysis of the deposited data

How the results depend on the processing

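Of the members, 1 was called with DESeq2 size factors, a mean of at least 5 CPM, robust dispersion, the DESeq2 Wald test and limma-voom, 0 with library size alone and 3 without the filter on low counts (Ifi204, Ifi205 and Zbp1). Leaving out 1 library gave 0 to 1, and the 1 was kept only without wild-type replicate 1. No member changed sign in any of these fits, and 118 of 126 member values kept their side of the threshold. Over all genes, 354 were called (222 higher, 132 lower), against 443 with library size alone (102 higher, 341 lower), 924 without the filter and 772 with the DESeq2 Wald test. Leaving out 1 library gave 36 (without knockout replicate 3) to 277 (without wild-type replicate 3) genes, with 39 and 64 without knockout replicates 1 and 2, and 193 and 151 without wild-type replicates 1 and 2. Such fits hold fewer samples. Otherwise the cause was not tested. With a replicate block, 1 member and 414 genes were called. The labels do not say that equal numbers mark shared animals or days, and libraries with the same number correlated at 0.038, 0.087 and -0.043 in their deviations from the group means, so the block was not used as the main design. In the simulated data 18.6% of 1.5-fold changes were called at this depth and number of libraries, so members with small differences may have been missed.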
